A study of Mus musculus with 6 samples.

Results

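The transcripts of 10 CC chemokine ligand genes, Ccl2, Ccl3, Ccl4, Ccl5, Ccl6, Ccl7, Ccl8, Ccl9, Ccl12 and Ccl19, were examined in mouse optic nerves after optic nerve crush (ON-CR) or sham surgery. They were found by gene symbol and are 10 of the 25755 genes with values. They were selected on family membership with their sham and ON-CR values already known, so their differences between these groups are given as a description, and no test of them is read as a result.

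Whole optic nerves of 3-month-old Nf1flox/flox; hGFAP-Cre mice (labelled NF1flox/flox;hGFAP-Cre) were sequenced in bulk, 3 after sham surgery (mice 1 to 3) and 3 after ON-CR (mice 4 to 6). Each library is labelled as a separate mouse. In this strain a human GFAP promoter drives Cre in neuroglial progenitors, so that neurofibromin is lost in the cells that descend from them while other cells keep floxed alleles. Sham and ON-CR mice carried the same genotype, and no Nf1-intact mice were compared here. The study asked how nerve injury acts on the formation of optic glioma, and it followed Ccl5 as a growth factor from tumor-associated monocytes (TAMs). It performed the surgery at 6 weeks of age. The nerves were therefore taken weeks later, at an age when the study reports optic gliomas after ON-CR.

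CC chemokines are small secreted proteins, named for a pair of adjacent cysteines, that guide leukocytes by binding G protein-coupled receptors. Ccl3, Ccl5, Ccl6 and Ccl9 act through Ccr1, Ccl2, Ccl7 and Ccl12 through Ccr2, mouse Ccl8 through Ccr8 and Ccl19 through Ccr7. In the injured nervous system, microglia, macrophages, astrocytes and entering lymphocytes are known sources of different members. Bulk RNA does not assign a transcript to a cell, and more cells of a type and more RNA per cell cannot be told apart.

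Of the 10 genes, 9 lie on chromosome 11 (GRCm38, the assembly also called mm10). Ccl2, Ccl7, Ccl12 and Ccl8 form a group of 4 within 81.2 kb. Ccl2 is at 82035571-82037453, Ccl7 at 82045712-82047525, Ccl12 at 82101845-82103400 and Ccl8 at 82115185-82116799, all on the plus strand. A second group of 5 spans 138.9 kb, with Ccl5 at 83525778-83530518, Ccl9 at 83572919-83578636, Ccl6 at 83587882-83593087 and Ccl3 at 83647844-83649355 on the minus strand and Ccl4 at 83662584-83664683 on the plus strand. Ccl3 and Ccl4 point away from each other, their annotated starts 13229 bases apart. Ccl19 lies apart on chromosome 4 at 42754525-42756577 on the minus strand. It has a second annotated copy on a separate scaffold, and its reads came out as fractions, so its values are uncertain. Ccl2, Ccl6 and Ccl19 overlap genes on the opposite strand, with 0 shared exon bases.

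Promoter sequence from RefSeq (GRCm38.p6) was matched for 6 of the 10 genes. Ccl2, Ccl4, Ccl5 and Ccl7 were not matched. The 130 bases before the RefSeq start are shown 5′ to 3′ for 5 genes, to set neighbours from the same chromosome side by side: Ccl3, Ccl6 and Ccl9, which were above every sham value in all ON-CR mice, and Ccl12 and Ccl8, which were not. Capitals mark motif matches.
Ccl3 promoter, chr11:83649379-83649508, minus strand: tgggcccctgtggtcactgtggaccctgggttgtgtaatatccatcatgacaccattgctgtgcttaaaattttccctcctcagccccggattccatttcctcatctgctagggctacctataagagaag
Ccl6 promoter, chr11:83593088-83593217, minus strand: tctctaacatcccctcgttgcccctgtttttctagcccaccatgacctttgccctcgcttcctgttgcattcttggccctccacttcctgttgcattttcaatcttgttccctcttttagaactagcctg
Ccl9 promoter, chr11:83578637-83578766, minus strand: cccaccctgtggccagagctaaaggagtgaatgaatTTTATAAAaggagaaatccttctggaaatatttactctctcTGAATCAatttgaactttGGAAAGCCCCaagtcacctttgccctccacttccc
Ccl12 promoter, chr11:82101715-82101844, plus strand: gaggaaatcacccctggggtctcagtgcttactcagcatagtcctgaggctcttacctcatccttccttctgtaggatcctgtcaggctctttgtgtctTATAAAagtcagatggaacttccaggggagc
Ccl8 promoter, chr11:82115055-82115184, plus strand: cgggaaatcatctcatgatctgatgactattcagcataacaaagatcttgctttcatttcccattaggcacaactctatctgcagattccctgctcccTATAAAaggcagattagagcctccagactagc

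The 250 bases before each start were searched on both strands for the NF-kB consensus, for AP-1 (TGANTCA), for C/EBP (TTNNGCAA) and for the TATA box (TATAAA). Ccl9, a Ccr1 ligand of myeloid cells, held an NF-kB match 35 to 26 bases before the start, an AP-1 match at 53 to 47, and TATA box matches at 92 to 87, at 94 to 89 on the other strand (which overlaps it) and at 224 to 219. Ccl12 held a TATA box 31 to 26 bases before its start and Ccl8 one at 32 to 27. The letters searched for were not in the windows of Ccl3, Ccl6 and Ccl19. Among 32851 promoter windows of this length, 7.25% held the NF-kB consensus, 6.75% AP-1, 9.56% C/EBP and 12.4% the TATA box.

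The deposited values are a normalized signal: estimated reads divided by 1 factor per library, so that 1 read is worth 0.885 to 1.06. The 6 libraries held 17414091 to 23621006 estimated reads. All sham libraries had the Y-linked Ddx3y at 1291 to 1645 and Xist at 2.14 to 30.9. Xist was at 2708 to 6357 in the ON-CR libraries, and Ddx3y was at 976 in mouse 4, 4.19 in mouse 5 and 0 in mouse 6, so sex and surgery cannot be told apart. The library of mouse 4 carried both signals, and whether it came from a single animal was not tested. For qPCR of optic nerve RNA the study used more than 1 mouse per sample. It does not say whether mice were pooled for the sequencing libraries. Mouse 6 stood apart by the immunoglobulin light chain gene Igkc, at 83710 against 48.2 to 1602 in the other 5 libraries. Member fold changes are therefore given with and without mouse 6.

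After ON-CR, Ccl3, Ccl4 and Ccl6 were higher in every ON-CR mouse than in any sham mouse, by 22.6-fold, 29.5-fold and 3.87-fold in the group means. Ccl2 and Ccl9 were also above all sham values, by 3.75-fold and 2.37-fold. The other 5 (Ccl5, Ccl7, Ccl8, Ccl12 and Ccl19) had higher means after ON-CR, by 1.23-fold to 2.48-fold, but overlapped between the groups. ON-CR mouse 6 was the highest of the 3 ON-CR mice for 9 of the 10 ligands, against 32.9% of all genes. All 10 means were higher after ON-CR, and 7 were when mouse 6 was left out. The log2 fold change was positive for 9 of the 10 ligands, beside 52.8% of all genes.

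**Figure D1:**
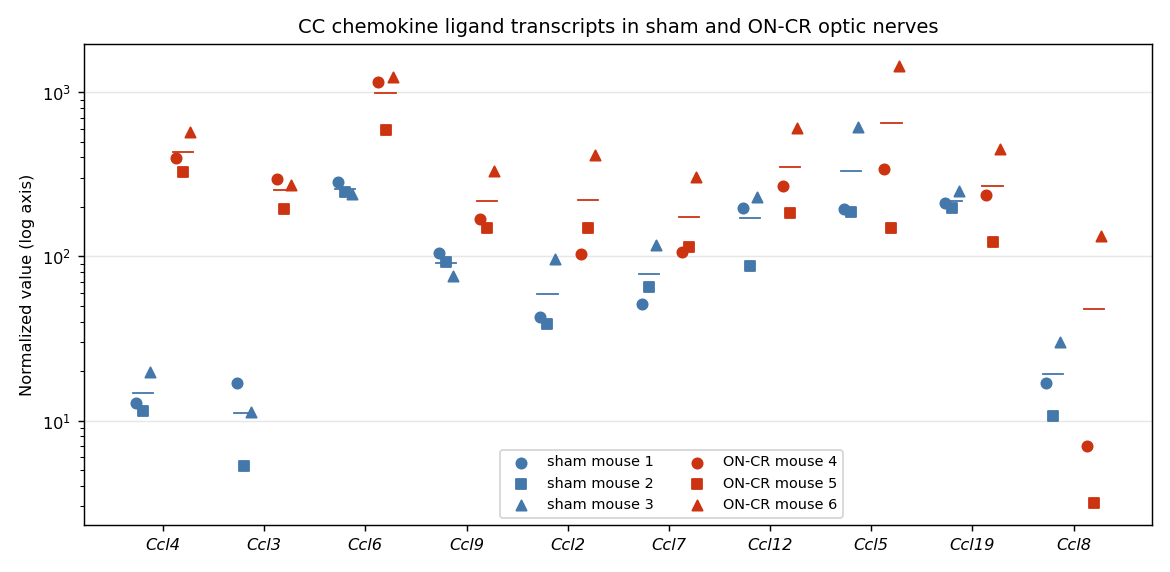
Normalized value (log axis) of each CC ligand in each library. Symbols are single mice and short lines are group means. Ccl4, Ccl3, Ccl6, Ccl9 and Ccl2 were separated between the 3 sham and 3 ON-CR mice, whereas ON-CR mice 4 and 5 lay among or below the sham mice for Ccl5, Ccl19 and Ccl8.

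Ccl4, macrophage inflammatory protein 1-beta, was at 12.7, 11.5 and 19.7 in sham mice 1 to 3 and at 396, 324 and 575 in ON-CR mice 4 to 6. The lowest ON-CR value was well above the highest sham value. Its mean was 14.7 ± 4.43 (SD, n = 3) in sham and 432 ± 129 (SD, n = 3) in ON-CR nerves, a log2 fold change of 4.78 ± 0.30 (SE) on the log2(value + 1) scale, which understates changes from low values. It stayed between 4.56 and 5.00 whichever mouse was left out. By qPCR, a different measure, the study reports no change in Ccl4 after ON-CR in this strain at the same age. Why the measures differ was not tested.

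Ccl3, a Ccr1 ligand, was at 17.0, 5.31 and 11.3 in sham mice and at 295, 195.0 and 270.0 in ON-CR mice. Here mouse 4 and not mouse 6 was the highest, and the groups were again far apart. The sham mean was 11.2 ± 5.83 (SD, n = 3) and the ON-CR mean 253 ± 52.1 (SD, n = 3), with a log2 fold change of 4.49 ± 0.39 (SE) and of 4.43 without mouse 6. In the sham libraries it rested on 6 to 16 estimated reads, so the sham level carries the larger share of counting error. The ON-CR mice were within 1.51-fold of each other, the tightest of the 10 ligands.

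The ratio of Ccl4 to Ccl3 was 1.34, 1.66 and 2.13 in ON-CR mice 4, 5 and 6, and 0.75, 2.17 and 1.75 in the sham mice, whose range held all ON-CR ratios. Each ON-CR mouse on its own had 17.4 to 26.4 times the sham mean of Ccl3 and 22.1 to 39.3 times that of Ccl4. Their log2 values had a Pearson r of 0.98 over the 6 libraries, given as a description because both differ between the groups.

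Ccl6, a Ccr1 ligand made by myeloid cells, was at 284, 246 and 239 in sham mice and at 1148, 589 and 1239 in ON-CR mice. Mouse 5 was the lowest of the ON-CR mice and still above all sham mice. The means were 256 ± 24.6 and 992 ± 352 (SD, n = 3 each), and the log2 fold change was 1.88 ± 0.25 (SE) and 1.68 without mouse 6.

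Ccl9, its neighbour on chromosome 11 and also a Ccr1 ligand, was at 105, 93.0 and 76.1 in sham mice and at 169.5, 149 and 331 in ON-CR mice. The ON-CR values lay above the sham values, mouse 6 by the most. The means were 91.4 ± 14.6 and 217 ± 99.9 (SD, n = 3 each), with a log2 fold change of 1.16 ± 0.30 (SE) and of 0.80 without mouse 6. The ratio of Ccl6 to Ccl9 was 2.65 to 3.14 in sham mice and 3.74 to 6.77 in ON-CR mice, with no overlap.

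Ccl5, the Ccr1 ligand that the study followed, was at 195, 185.0 and 617 in sham mice and at 342, 148 and 1444 in ON-CR mice. The groups overlapped: sham mouse 3 exceeded ON-CR mice 4 and 5, and mouse 5 was the lowest of all 6. The means were 332 ± 247 and 645 ± 699 (SD, n = 3 each), a ratio of 1.94 and a log2 fold change of 0.57 ± 0.71 (SE), smaller than its error. Without mouse 6, the ON-CR mean was 0.737 times the sham mean and the log2 fold change -0.32. Its 9.77-fold range among ON-CR mice was exceeded only by that of Ccl8 among the 10 ligands. The study reports higher Ccl5 after ON-CR by qPCR, a different measure, in this strain at the same age. It also reports more Ccl5-positive cells by in situ hybridization, with most of the Ccl5 made by TAMs.

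Of the Ccr2 ligands, Ccl2 (monocyte chemoattractant protein 1) was at 42.4, 39.0 and 95.8 in sham mice and at 103, 149 and 413 in ON-CR mice. The groups did not overlap, although sham mouse 3 lay just below ON-CR mouse 4. The means were 59.1 ± 31.9 and 222 ± 168 (SD, n = 3 each), with a log2 fold change of 1.75 ± 0.50 (SE), which was 1.18 without mouse 6. The ON-CR range was 4.02-fold.

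Ccl7 was at 50.9, 64.6 and 117 in sham mice and at 106, 113 and 304 in ON-CR mice. Mice 4 and 5 lay below sham mouse 3. The means were 77.7 ± 35.1 and 174 ± 113 (SD, n = 3 each), with a log2 fold change of 1.07 ± 0.43 (SE) and of 0.58 without mouse 6. The ratio of Ccl7 to Ccl2 was 1.20 to 1.66 in sham mice and 0.736 to 1.03 in ON-CR mice, without overlap. Their log2 values had an r of 0.971 over the 6 libraries.

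Ccl12, the third Ccr2 ligand, was at 197, 87.7 and 228 in sham mice and at 268, 185 and 603 in ON-CR mice. ON-CR mouse 5 lay below sham mice 1 and 3, while mice 4 and 6 lay above all sham mice. The means were 171 ± 73.9 and 352 ± 222 (SD, n = 3 each), with a log2 fold change of 0.97 ± 0.44 (SE) and of 0.49 without mouse 6.

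Ccl8, which in the mouse acts on Ccr8, was at 17.0, 10.6 and 30.1 in sham mice and at 6.98, 3.14 and 133 in ON-CR mice. ON-CR mice 4 and 5 were below all sham mice and mouse 6 was above them, a 42.3-fold range within the group. The mean was higher after ON-CR, 47.7 ± 73.8 against 19.2 ± 9.91 (SD, n = 3 each), but the log2 fold change was -0.18 ± 1.07 (SE), so mean and log2 scale differ in sign. Without mouse 6 the log2 fold change was -1.70. The values of mice 4 and 5 rested on 7 and 3 estimated reads, and 3 reads is the floor used here for detection.

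Ccl19, the Ccr7 ligand of lymphoid stroma, was at 210.0, 196 and 248 in sham mice and at 236, 122 and 448 in ON-CR mice. Mouse 5 was below and mouse 6 above all sham mice. The means were 218 ± 27.1 and 268 ± 165 (SD, n = 3 each), and the log2 fold change of 0.11 ± 0.38 (SE) became -0.35 without mouse 6. The sham mice were close together, and the spread lay in the ON-CR group.

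**Figure D2:**
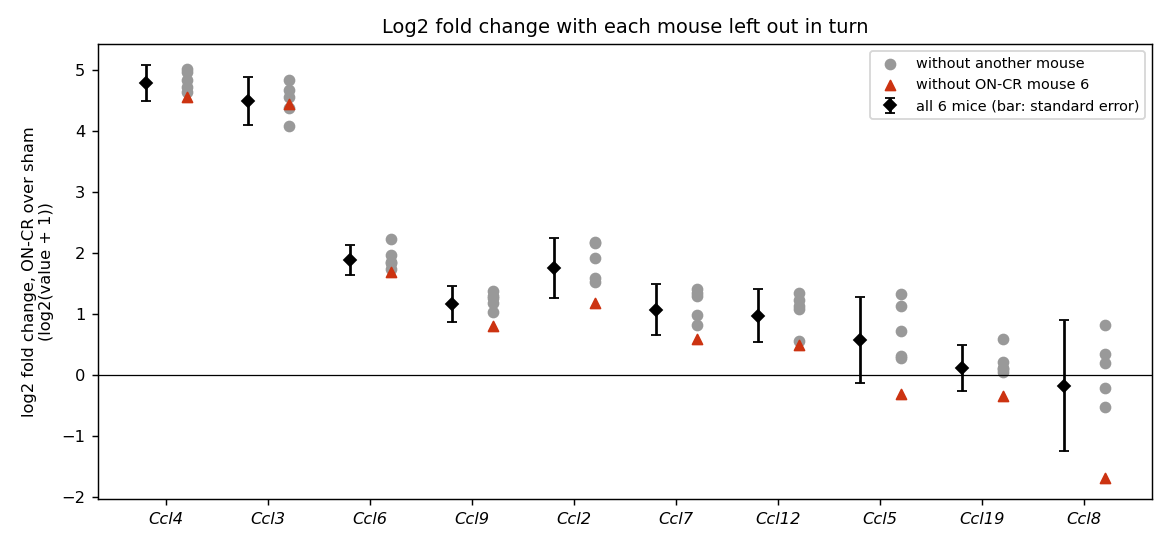
Log2 fold change of ON-CR over sham (log2(value + 1)) for each ligand with all 6 mice (diamond, bar = SE) and with each mouse left out in turn (circles, and a triangle for ON-CR mouse 6). Ccl4 and Ccl3 stayed at or above 4.08 in every case, and Ccl5 and Ccl19 were negative without ON-CR mouse 6.

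Between the groups, 5 of the 10 ligands did not overlap and were higher after ON-CR, beside 10.5% of all genes. By limma, 3 (Ccl3, Ccl4 and Ccl6) had an adjusted p at or under 0.05 and were higher, beside 0.971% of all genes in that direction, and 0 were lower, beside 1.13%. Since the ligands were chosen with this contrast known, nothing is read from these counts. The median log2 fold change was 1.11 over the 10 ligands and 0.03 over all genes. Without mouse 6 the count was 2, Ccl6 no longer being called. It was 4, with Ccl9 added, when mouse 5 was left out and with voom with sample weights.

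Seen by mouse, ON-CR mouse 6 was above all sham mice for all 10 ligands, mouse 4 for 6 and mouse 5 for 5. Mouse 5 was the lowest ON-CR mouse for 8 ligands. The share over all genes is not given for these counts, so nothing is read from them. Among sham mice, mouse 3 was the highest for 7, against 34.0% of all genes. The library of mouse 5 also had a summed level of 6 retinal neuron markers of 5482, against 867 and 1344 in ON-CR mice 4 and 6. In sham mice 1 to 3 that sum was 2498, 1155 and 1003. How far this bears on the ligand values of mouse 5 was not tested. The pairs differed as a description over 6 libraries, with no test: Ccl3, Ccl4 and Ccl6 tracked each other (r of 0.952 to 0.98), Ccl5, Ccl8 and Ccl19 tracked each other (0.891 to 0.925), and Ccl3 was nearly unrelated to Ccl8 (0.008) and weakly related to Ccl5 (0.303).

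To compare levels between genes, values were divided by the annotated exon length in kb. The summed level of the 10 ligands was 1182, 909 and 1846 per kb in sham mice and 3044, 2039 and 6170 in ON-CR mice. The ON-CR sums lay above the sham sums, although mouse 5 was close to sham mouse 3. In sham nerves the highest levels were those of Ccl5 (346 ± 257 per kb, SD, n = 3), Ccl12 (319 ± 138) and Ccl19 (251 ± 31.2), whose ranges overlapped, and the ranges of Ccl19 and of Ccl6, the next in order, did not. Ccl3 (14.6 ± 7.62) and Ccl4 (22.2 ± 6.71) were the lowest of the 10.

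In ON-CR nerves Ccl5 (672 ± 728 per kb, SD, n = 3), Ccl12 (655 ± 413), Ccl4 (654 ± 196) and Ccl6 (553 ± 196) came first, followed by Ccl3 (331 ± 68.0) and Ccl19 (310 ± 191), then Ccl7 (218 ± 140), Ccl2 (195 ± 147), Ccl8 (93.3 ± 144) and Ccl9 (71.1 ± 32.8). Every ligand in this order overlapped the next. Without mouse 6 the ON-CR means were 545 per kb for Ccl4, 484 for Ccl6, 422 for Ccl12, 320 for Ccl3 and 255 for Ccl5. As a mean share of the summed level, Ccl4 was 1.72% in sham and 19.3% in ON-CR nerves and Ccl3 1.15% and 10.3%. The mean share of Ccl5 was 24.4% in sham and 14.5% in ON-CR nerves, that of Ccl19 20.3% and 8.06%, and that of Ccl12 24.0% and 17.2%. Without mouse 6 the ON-CR mean shares were 21.9% for Ccl4, 12.6% for Ccl3, 9.63% for Ccl5, 7.91% for Ccl19 and 16.6% for Ccl12. In mouse 6, Ccl5 was the largest share at 24.4%, as it was in sham mouse 3 at 34.8%.

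**Figure D3:**
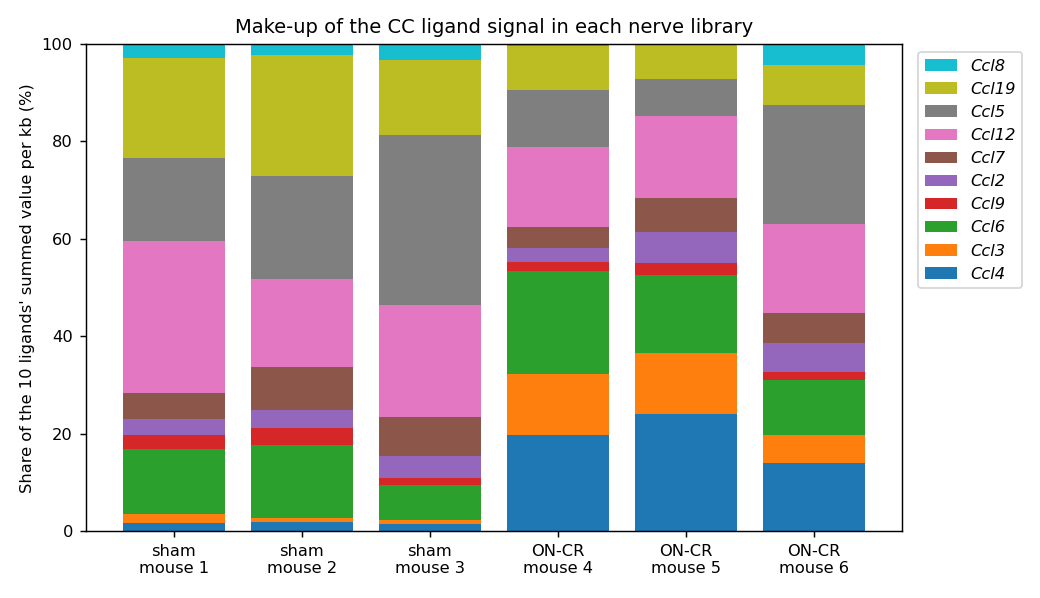
Share of each CC ligand (%) in the summed value per kb of exon of the 10 ligands, one bar per library. Ccl4 and Ccl3 together take 2.42% to 3.51% in the 3 sham libraries and 32.4%, 36.6% and 19.8% in ON-CR mice 4, 5 and 6, and Ccl5 is widest in sham mouse 3 and ON-CR mouse 6.

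Of the 14 other CC ligand genes listed for the family, 9 had values, and Ccl20, Ccl21b, Ccl21c, Ccl26 and Ccl27b were not in the table. Limma called 0, with 0 at an unadjusted p under 0.05 and 0 with voom. Their median log2 fold change was 0.26, and 7 had a higher mean after ON-CR. Ccl17, a Ccr4 ligand, was at 5.31, 7.97 and 17.8 in sham mice and at 9.97, 14.7 and 129.8 in ON-CR mice. Only mouse 6 was above all sham mice, and the adjusted p was 0.452 by limma.

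Ccl22, which shares Ccr4 with Ccl17, was at 27.6, 16.8 and 86.4 in sham mice and at 48.9, 11.5 and 152 in ON-CR mice. As for Ccl5, mouse 5 was the lowest and mouse 6 the highest of all 6. Ccl25, a Ccr9 ligand (126 to 157 in sham, 137 to 187 in ON-CR mice), and Ccl27a, a Ccr10 ligand (118 to 153 and 118 to 197), were steadier, with adjusted p of 0.649 and 0.771 by limma. The eotaxins Ccl11 (5.31 to 15.0 and 7.27 to 12.96) and Ccl24 (3.76 to 7.08 and 0 to 20.8), and Ccl1 (0 to 3.76 and 0 to 15.6), Ccl21a (2.82 to 8.42 and 3.14 to 15.6) and Ccl28 (4.43 to 24.4 and 2.08 to 9.43) were low and overlapped between the groups. Reads of Ccl21a, Ccl25 and Ccl27a included fractions, so near-identical copies may share them.

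Of 15 CC receptor genes, 13 had values, Ccr3 and Ccr1l1 not being in the table. Limma called 0 of them, with 2 higher and 0 lower at an unadjusted p under 0.05 (Ccr8 and Ackr1) and 0 called with voom. Ccr1, the receptor of Ccl3, Ccl5, Ccl6 and Ccl9, was at 179, 93.8 and 83.6 in sham mice and at 72.8, 71.3 and 104 in ON-CR mice, overlapping between the groups (adjusted p = 0.531 by limma).

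Ccr2, the monocyte receptor for Ccl2, Ccl7 and Ccl12, was at 265, 176 and 204 in sham mice and at 356, 102.4 and 345 in ON-CR mice. Mice 4 and 6 were above and mouse 5 below all sham mice. Its reads included fractions, so a gene of similar sequence may share them. Ccr7, the Ccl19 receptor, was at 15.9, 1.77 and 45.1 in sham mice and at 15.0, 11.5 and 155 in ON-CR mice. Ccr8, the Ccl8 receptor, was at 0, 0 and 1.88 in sham mice and at 0.997, 6.29 and 38.4 in ON-CR mice. Both were highest in mouse 6, with adjusted p of 0.632 and 0.278 by limma.

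The decoy receptor Ackr1, which binds many CC and CXC ligands on venules and red cells without signalling, was at 66.5, 42.5 and 29.8 in sham mice and at 84.7, 92.7 and 225 in ON-CR mice, without overlap (log2 fold change 1.44 ± 0.41 SE, adjusted p = 0.116 by limma). It shares 361 exon bases with Cadm3 on the same strand, so its reads are uncertain. Ackr2, a scavenger of inflammatory CC ligands, was at 4.43 to 6.37 in sham and 7.27 to 27.9 in ON-CR mice, and Ackr4, which scavenges Ccl19 and Ccl21, at 114 to 137 and 87.8 to 107. The groups did not overlap for Ackr2 (higher) and Ackr4 (lower), with adjusted p of 0.343 and 0.432 by limma. Ccrl2 was at 106 to 134 and 119.5 to 221, Ccr9 at 70.8 to 119 and 57.7 to 120.3, Ccr10 at 12.7 to 26.6 and 17.8 to 26.0, Ccr6 at 0 to 10.3 and 1.05 to 57.1, and Ccr4 at 0 to 2.12 and 0 to 8.31.

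Among the other chemokines, 14 of 17 CXC, CX3C and XC ligand genes had values (Cxcl2, Cxcl3 and Cxcl15 were not in the table). By limma, 1 rose and 1 fell, with 3 higher and 3 lower at an unadjusted p under 0.05. Cxcl10, an interferon-induced ligand of the T cell receptor Cxcr3, was at 173, 65.5 and 196 in sham mice and at 458, 352 and 812 in ON-CR mice. The groups did not overlap, and its log2 fold change was 1.95 ± 0.41 (SE, adjusted p = 0.0407 by limma). The call was lost under 7 of 14 other settings, with adjusted p of 0.0173 to 0.237 over all of them. Cxcl10 shares 133 exon bases with Art3 on the opposite strand, which was at 100.5 to 153.

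Cxcl14, a chemokine present in healthy tissue, was at 909, 1517 and 919 in sham mice and at 422, 442 and 330 in ON-CR mice. All ON-CR mice were below all sham mice, and it fell by 1.45 on the log2 scale (SE 0.21, adjusted p = 0.00733 by limma). The call was lost without mouse 6 (adjusted p = 0.0858). Cx3cl1, the neuronal ligand of the microglial receptor Cx3cr1, was at 752 to 921 in sham and 589 to 948 in ON-CR mice (log2 fold change -0.14, adjusted p = 0.759 by limma). The medians were 0.15 over these 14 genes and 0.03 over all genes.

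Of 18 cytokines and receptors known to induce CC ligand genes, all 18 had values, 1 rose and 0 fell by limma, and 5 were higher and 1 lower at an unadjusted p under 0.05. Il1a was at 16.4, 15.9 and 22.1 in sham mice and at 107, 50.3 and 96.1 in ON-CR mice, with no overlap and a log2 fold change of 2.10 ± 0.37 (SE, adjusted p = 0.0195 by limma). Leaving out any 1 mouse other than mouse 5 ended the call, with adjusted p up to 0.158. It shares 222 exon bases with the opposite-strand gene Gm14023, at 9.74 to 32.7. Il1b, the cytokine that the study followed, was at 9.55, 3.54 and 1.88 in sham mice and at 31.9, 5.24 and 17.7 in ON-CR mice. Sham mouse 1 was above ON-CR mouse 5, and the adjusted p was 0.332 by limma. The study reports higher Il1b RNA by qPCR and more of its protein by immunostaining after ON-CR. It assigned most of the positive cells to oligodendrocytes. Tnf was at 0 to 5.63 in sham and 0 to 3.99 in ON-CR mice.

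The study linked Ccl5 to NF-kB, a transcription factor held in the cytoplasm by IkB proteins. All 18 NF-kB pathway genes had values and limma called 0, with 1 higher (Bcl3, a nuclear IkB protein) and 1 lower (Nfkbia, the IkB-alpha gene) at an unadjusted p under 0.05, and 0 called with voom. Bcl3 was at 20.2, 8.85 and 21.6 in sham mice and at 50.9, 30.4 and 68.5 in ON-CR mice, with no overlap (adjusted p = 0.128 by limma). Nfkbia was at 3961 to 6677 in sham and 2493 to 4243 in ON-CR mice (adjusted p = 0.269 by limma). These are transcript levels, and the activity of the pathway was not measured by them. Bcl3 and Nfkbia were named after their values were seen.

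Markers of cells that can make CC ligands were summed in each library. The microglial sum was 21302, 18248 and 15348 in sham mice and 29044, 19777 and 29068 in ON-CR mice, with 2 of 12 markers called higher (Aif1 and Trem2) and an exact permutation p of 0.2. The call of Aif1 was lost under 5 of 14 other settings (adjusted p up to 0.175 by limma), and that of Trem2 without mouse 6 (adjusted p = 0.0518). The monocyte and macrophage sum was 3061, 2781 and 3146 in sham mice and 5492, 3712 and 6156 in ON-CR mice, with 1 of 11 called higher (Cd68). The ON-CR sums lay above the sham sums, at the smallest p that 3 against 3 can give (exact permutation p = 0.1, two-sided). Without Cd68, its highest marker, the sums overlapped at 2158 to 2529 in sham and 1890 to 3502 in ON-CR mice (exact permutation p = 0.5). Of the 12 microglial markers, 9 had a higher mean after ON-CR. Csf1r was at 3615 to 4877 in sham and 3950 to 6020 in ON-CR nerves, and Tmem119 at 1523 to 1745 and 1169 to 1487. All ON-CR values of Tmem119 lay below its sham values (adjusted p = 0.351 by limma). P2ry12 also had a lower mean, 1298 in ON-CR against 1682 in sham nerves, with overlap. By microscopy, a different measure, the study reports more Iba1-positive and more Tmem119-positive cells after ON-CR. Defining markers of microglia were present in every library.

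The T cell sum was 305, 345 and 837 in sham mice and 651, 294 and 1851 in ON-CR mice, with 0 of 12 markers called (1 at an unadjusted p under 0.05, exact permutation p = 0.7). The sum for NK and cytotoxic cells was 110.0, 91.2 and 283 in sham mice and 267, 80.7 and 526 in ON-CR mice, with 0 of 8 called (0 unadjusted, exact permutation p = 0.7). Both sums were highest in mouse 6 and lowest in mouse 5 and, among sham mice, highest in mouse 3, as were the values of Ccl5. The B and plasma cell sum was 2128, 931 and 2613 in sham mice and 1634, 528 and 98915 in ON-CR mice, with 0 of 10 called (0 unadjusted, exact permutation p = 0.9). It was lowest in mouse 5 and highest in mouse 6, as were Ccl5, Ccl8, Ccl19 and Ccl22. No marker of these lists was at 0 in all libraries, and their part in the member values was not tested.

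**Figure D4:**
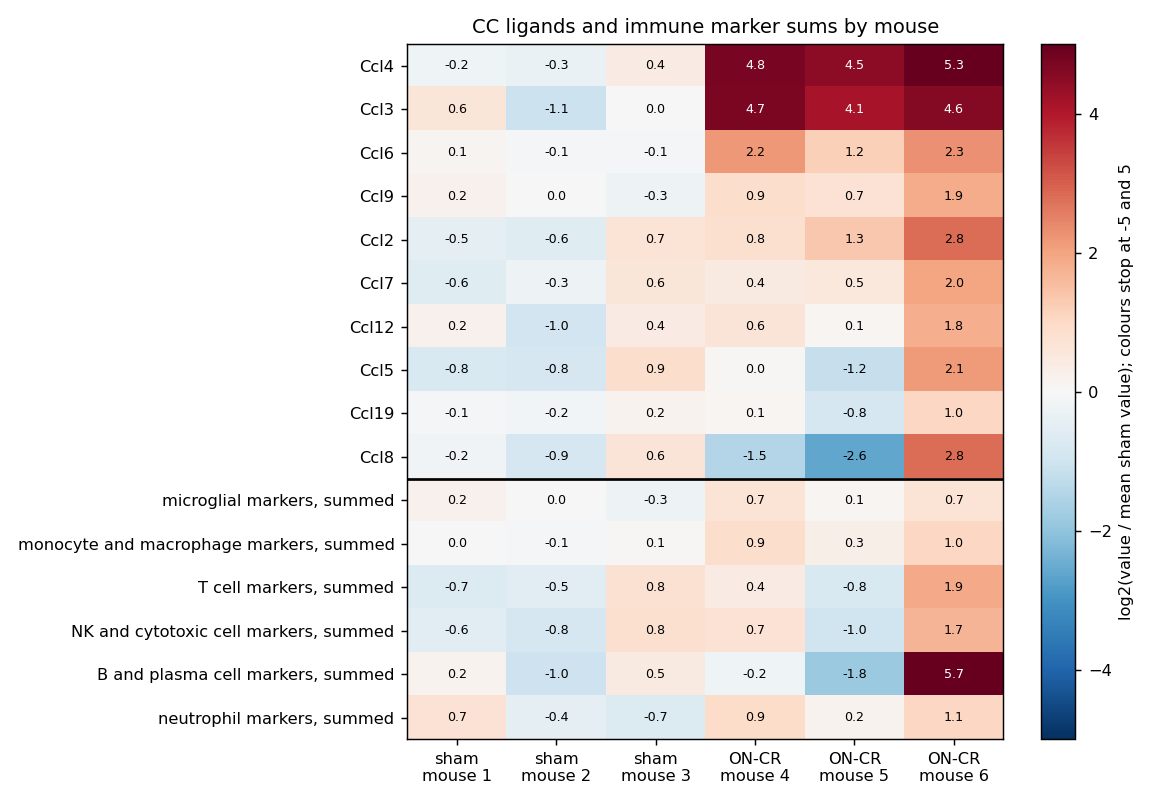
Log2 of each value over the mean sham value, for the 10 CC ligands (above the line) and for summed markers of immune cells (below it), one column per mouse. Ccl4 and Ccl3 are high in all 3 ON-CR mice, whereas Ccl5, Ccl19 and Ccl8, like the T, NK and B cell sums, are low in ON-CR mouse 5 and high in mouse 6.

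The neutrophil sum was 216 to 562 in sham and 392 to 713 in ON-CR mice (9 of 10 markers in the table, 0 called, 1 at an unadjusted p under 0.05, exact permutation p = 0.2). The dendritic cell sum, 3701 to 4827 and 2358 to 3661, was lower in ON-CR nerves (exact permutation p = 0.1), although Itgax, which activated microglia also express, was at 26.6 to 31.7 in sham and 163 to 401 in ON-CR mice (adjusted p = 0.00168 by limma), and the sum was mostly Fscn1, at 3261 to 4449 and 1578 to 2935. Without Fscn1 the direction turned, and the sums of the other 8 markers overlapped at 353 to 875 in sham and 444 to 1726 in ON-CR mice (exact permutation p = 0.5). Of the resident cells, the astrocyte sum was 170596 to 205862 in sham and 247464 to 280447 in ON-CR mice (exact permutation p = 0.1). Without Gfap, its highest marker, these sums overlapped at 71410 to 83869 and 77490 to 90999 (exact permutation p = 0.7). The oligodendrocyte sum was lower, with all 6 markers called lower. Over the 14 marker lists, 5 sums did not overlap between the groups, those of monocytes and macrophages and of astrocytes being higher and those of dendritic cells, oligodendrocytes and fibroblasts lower. With the highest marker left out of each list, 3 did not overlap, those of oligodendrocytes, fibroblasts and Schwann cells, all lower. Values are scaled by 1 factor per library and are not absolute amounts. How far the make-up of the nerve bears on the ligands was not tested.

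The 10 genes outside the list whose log2 values over the 6 libraries were most like the mean standardized profile of the ligands had r of 0.984 to 0.994, among 14427 genes compared. They were Gm2000, Samhd1, Gm11263, Gm8797, Adgrg6, Gm5637, Rps10-ps2, H2-Q7, Rpl28-ps1 and Gm15427. The profile itself was -0.59, -0.86 and -0.21 in sham mice and 0.32, -0.14 and 1.48 in ON-CR mice. Samhd1, a nucleotide hydrolase of immune cells, was at 492, 477 and 587 in sham mice and at 649, 556 and 922 in ON-CR mice. H2-Q7, a class Ib histocompatibility gene, was at 111, 119 and 153 in sham mice and at 293, 198 and 812 in ON-CR mice. Several of the others are predicted or pseudogenes with a smaller range, and H2-Q7 has close paralogs that may share its reads. All 10 had their highest value in mouse 6, and 429 genes had an r of at least 0.9.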

How the data were processed

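Bulk RNA of whole optic nerves from 3 sham and 3 ON-CR mice was analysed, grouped by the sample labels. The authors made libraries from total RNA of perfused mice with a low-input kit (whether counting used strand is not given in the sources used here), aligned and quantified the reads with DRAGEN against Ensembl models of mm10, applied median normalization in Partek Flow 10.0 and tested with DESeq2. The deposited values are a normalized signal per gene. Dividing by the most frequent low value gave whole reads (within 0.02) for 66.9% to 69.4% of values, so no count model was run. Voom, which expects reads, was run on these estimated reads as an alternative only, and the same limit applies to it. Libraries held 17414091 to 23621006 such reads. The 3-read floor was a value of 2.66 to 3.18 and covers counting error only.

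The test was limma (version 3.58.1, R 4.3.3, moderated with a mean-variance trend) on the log2 of the value plus a pseudocount of 1, fitted to all 25755 genes with no further filter, and its p-values were adjusted by Benjamini-Hochberg. The call threshold was an adjusted p of 0.05. Marker sums were compared by a two-sided exact permutation test over 20 arrangements. Summaries used Python 3.11.15 and pandas 2.3.3. The fit was tested on simulated data, with mice independent and the same spread setting for all genes. That test did not cover an outlying mouse or a sex difference. Alternatives were other scalings, pseudocounts of 0.1 and 2, a filter of at least 10 estimated reads in at least 3 libraries, a robust fit, voom with sample weights, and leaving out each mouse.

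The members and gene lists were chosen with earlier results of these data known. Named were all members, the CC ligands and receptors above 3 reads in any library, called genes of the other chemokine, NF-kB and inducer lists (up to 4 each) with Il1b, Tnf, Cxcl10 and Cx3cl1, the highest markers of a list, Xist, Ddx3y and the 10 genes most like the members' profile at a mean of at least 50. Positions and exon lengths are from GENCODE for GRCm38 and promoters from RefSeq for GRCm38.p6. Single genes of these lists are left out of the text.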

Additional observations from a re-analysis of the deposited data

How the results depend on the processing

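Of 140 values of the 10 ligands under 14 other settings, 134 kept their direction and 6 reversed, all for Ccl5, Ccl8 or Ccl19. With a mouse left out, the log2 fold change was -0.32 to 1.32 for Ccl5 (negative without ON-CR mouse 6), -0.35 to 0.58 for Ccl19 (negative without ON-CR mouse 6) and -1.70 to 0.81 for Ccl8 (positive without sham mouse 3, ON-CR mouse 4 or ON-CR mouse 5, at 0.18, 0.34 and 0.81). Voom gave 0.26 for Ccl8. The count of called CXC, CX3C and XC ligands was 2, and it was 1 with a pseudocount of 0.1 and 1 with the robust fit (Cxcl10 lost), and 0 to 4 with a mouse left out. The count of called inducers was 1, and it was 3 with library size as the only scaling, 2 with the robust fit, 4 with voom, and 0 to 3 with a mouse left out. The cause was not tested. The other CC ligands, the receptors and the NF-kB genes stayed at 0 calls in all 14 settings. The 5 marker sums without overlap were 4 with library size only or TMM scaling, 5 to 7 with a mouse left out, and 3 without the highest marker of each list, a setting chosen after seeing the data. Over all genes, 250 were called higher and 290 lower, 421 and 195 with library size only, 614 and 247 with voom, 315 and 395 with the robust fit, 39 and 28 when ON-CR mouse 6 was left out, 137 and 325 when mouse 4 was, 489 and 365 when mouse 5 was, and 78 to 113 and 45 to 145 when 1 sham mouse was. Library size only and voom moved the median log2 fold change of all genes from 0.03 to 0.15. No paired analysis was possible because the sham and ON-CR mice carry different numbers. Depth limits Ccl3 in sham mice (6 to 16 reads) and Ccl8 in ON-CR mice 4 and 5 (7 and 3 reads). Mouse 6, sex and 3 mice per group limit all comparisons.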
